A study of Mus musculus with 4 samples.

Results

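The 55 genes described here encode the transport machinery of the primary cilium, the transition zone at its base and ciliary regulators of hedgehog signalling. They were taken by name, as the genes whose symbol in the array annotation equals 1 of the listed symbols, and are 55 of the 37074 gene names on the array. They fall into 7 classes: 10 intraflagellar transport B (IFT-B) genes, 5 IFT-A genes, 10 genes of the BBSome, its GTPase and its chaperonins, 15 transition zone genes, 6 motor genes, 3 genes of membrane GTPases and lipids, and 6 ciliary hedgehog regulators.

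The primary cilium is an antenna-like organelle that most vertebrate cells grow from a centriole when they are not dividing. Proteins pass the transition zone, a gate at the base of the cilium, and are carried by intraflagellar transport: kinesin-2 motors move IFT-B trains to the tip, dynein-2 brings them back with IFT-A, and the BBSome carries membrane proteins out. In the mouse embryo hedgehog signals are read in this cilium, and mice that lack transport or transition zone proteins are known for defects of the neural tube and limbs.

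The study compared whole embryos of WT mice with embryos of mice that lack DYRK2, a protein kinase, whose *Dyrk2* gene carries short deletions made with a Cas9 nickase in fertilized eggs. All embryos were C57BL/6 by the labels, and the study's methods name C57BL/6J as the strain of the eggs. The labels give 4 groups: WT at embryonic day (E) 8.5, *Dyrk2*-/- at E8.5, WT at E10.5 and *Dyrk2*-/- at E10.5. Cy3-labelled total RNA of each group was hybridised to 1 Agilent mouse array, and the 4 arrays lay on 1 slide. The number of embryos behind each RNA is not given, there are no replicates, and precision is limited by having 1 array per group.

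Signals are given as log2 of the processed intensity minus the 75th percentile of the array, so that 0 is the 75th percentile, and a gene is read from its brightest probe. The scanner software marked 31370 and 30226 probes as well above background at E8.5 (WT, then the array labelled *Dyrk2*-/-), and 31818 and 31943 at E10.5. Repeated spots of a probe had a median SD of 0.09, 0.12, 0.07 and 0.08 in the same order. Signals of different probes are not compared as amounts of RNA, since probes bind unequally.

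The arrays stand apart in 3 respects. The brightest probe of *Dyrk2* read 0.06 in WT and 0.76 in the array labelled *Dyrk2*-/- at E8.5, then −0.31 and 0.34 at E10.5. It was higher in both arrays labelled *Dyrk2*-/-, while a second probe differed by 0.03 and 0.28. A short deletion need not lower the RNA of its gene, and the place of the probes relative to the deletions was not determined, so these values do not test the labels, by which the arrays are named below. *Xist*, the RNA of the inactive X chromosome, was at least 20.4-fold higher in the array labelled *Dyrk2*-/- than in WT at E10.5, where the Y-linked gene *Kdm5d* was at least 39.0-fold lower and *Eif2s3y* at least 43.2-fold lower. At E8.5, 0 of 4 measurable Y-linked genes passed 1.5-fold, and *Xist* was not above background in either array. The sum of the signals of 15 erythroid genes, on the linear scale, was 19.0 in WT and 392 in the array labelled *Dyrk2*-/- at E8.5, then 1389 and 1631 at E10.5.

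The cilium genes were readily measured in whole embryos. All 55 are on the array, with 126 probes, of which 94 were well above background on all 4 arrays and 27 on 0 arrays. Of the 55 genes, 54 were well above background on all 4 arrays, and *Kif17* was so at E10.5 alone. In 41 genes several probes were present, and 14 had 1 probe. The sum of the 55 signals, on the linear scale, was 306 and 312 at E8.5, then 291 and 284 at E10.5.

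The comparison of genotypes asks which genes differ in embryos without DYRK2. At E8.5, 0 of 54 cilium genes differed by 1.5-fold or more between the genotypes, while 11.6% of the 20709 genes measured did, 5.14% higher and 6.5% lower in the array labelled *Dyrk2*-/-. The log2 ratios of the cilium genes ran from −0.33 (*Ift20*) to 0.42 (*Kif3a*), or 1.34-fold at most, with a median of −0.02, which is also that of all genes. At E10.5, 0 of 55 passed 1.5-fold, while 7.72% of 21209 genes did, 3.5% higher and 4.22% lower, and the ratios of the cilium genes ran from −0.36 to 0.43 with a median of −0.05. The middle 50% of the cilium genes spanned 0.21 at E8.5, against 0.38 for all genes, and 0.15 at E10.5, against 0.26. The 2 sets are not matched for signal. Of the cilium genes 54 were well above background on all 4 arrays, as were 18686 of all genes, while the genes measured here needed 1 array of the pair. The part of signal level in these shares and spans was not tested. Fewer cells of a type and less RNA per cell cannot be told apart in whole embryos.

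Scaling to the spike-in controls moved the median of all genes to −0.57 at E8.5, from −0.02, and to 0.16 at E10.5, from −0.00. Without scaling it was −0.28 and −0.13. The median of the cilium genes moved with it, to −0.57 and 0.12 with spike-ins and to −0.27 and −0.18 without scaling, and under spike-in scaling 22 of them (40.7%) passed 1.5-fold at E8.5, all lower, as did 47.6% of all genes. With a normexp correction 0 cilium genes passed at either stage, and 2.96% and 1.55% of all genes did.

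Over both stages limma, with the embryonic day as a block, called 6 of 32289 probes between the genotypes, or 0.0186%, and 0 of the 55 cilium genes. In 9 alternatives the calls ran from 0 probes, without the intensity trend, to 729, or 2.26%, without scaling, and held 0 cilium genes in each. At an unadjusted p under 0.05 it found 0 of the 55 cilium genes and 5.68% of 20901 genes. The lowest unadjusted p among the cilium genes was 0.075, for *B9d1*.

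Among the IFT-B genes the median log2 ratio was −0.04 in the E8.5 arrays and −0.07 in the E10.5 arrays, with 8 of 10 below 0 at each stage, and the median at E10.5 was 0.09 with spike-ins. *Ift27*, a small GTPase of the IFT-B train and the brightest gene of this class, read 4.58 in WT and 4.55 in the array labelled *Dyrk2*-/- at E8.5, then 4.75 and 4.67 at E10.5. *Ift88*, a core subunit without which the cilium is not built, read 2.22 and 2.13 at E8.5, then 2.0 and 1.97 at E10.5. *Ift20*, which also works at the Golgi, read 2.85 and 2.52 at E8.5, then 2.57 and 2.59 at E10.5. It gave the lowest ratio of the 54 genes at E8.5, and its arrays at E10.5 were level.

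The 5 IFT-A genes, whose proteins return the trains and admit membrane receptors, had median ratios of −0.04 and −0.07, the latter 0.10 with spike-ins. *Ift43*, the brightest of them, read 3.43 in WT and 3.26 in the array labelled *Dyrk2*-/- at E8.5, then 2.96 and 2.90 at E10.5. The BBSome class had median ratios of −0.16 at E8.5 and −0.07 at E10.5, with 8 of 10 genes below 0 at each stage, and the latter median was 0.10 with spike-ins. *Arl6*, the GTPase that brings the BBSome to membranes, read 2.06 and 1.84 at E8.5, then 1.81 and 1.84 at E10.5, so that the WT array at E8.5 was the high one.

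The 15 transition zone genes had median ratios close to 0, with −0.01 at E8.5, which turned with a normexp correction (0.006), while at E10.5 the median was −0.03, or 0.13 with spike-ins. *Tmem216*, a membrane protein of the gate and the brightest gene of the class, read 3.09 in WT and 2.97 in the array labelled *Dyrk2*-/- at E8.5, then 2.92 and 2.95 at E10.5. *B9d1*, a B9-domain protein of the same complex, read 2.92 and 2.60 at E8.5, then 2.79 and 2.63 at E10.5, lower in the array labelled *Dyrk2*-/- at both stages, though level at E10.5 with spike-ins (−0.0052). *Tmem231*, another membrane protein of the gate, read −1.96 and −1.64 at E8.5, then −1.58 and −1.48 at E10.5. It was the highest ratio of this class at E8.5, at 0.32, but −0.23 with spike-ins. *Ofd1*, a centriole protein encoded on the X chromosome, read 2.02 and 1.82 at E8.5, then 1.52 and 1.61 at E10.5, so the arrays that differ in *Xist* were 0.09 apart.

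The motors gave the largest ratios of the 55 genes, and their median was 0.21 at E8.5, or −0.34 with spike-ins, and −0.04 at E10.5, or 0.12 with spike-ins. *Kif3a*, a motor subunit of kinesin-2, read 1.71 in WT and 2.13 in the array labelled *Dyrk2*-/- at E8.5, then 2.33 and 2.14 at E10.5. Its WT array at E8.5 was the low one of the 4, and the E8.5 ratio of 0.42 was −0.13 with spike-ins. *Kif3b*, its partner subunit, read −2.13 and −1.93 at E8.5, then −1.95 and −2.31 at E10.5. In both genes the array labelled *Dyrk2*-/- was above WT at E8.5 and below it at E10.5, which turned at E8.5 with spike-ins and, for *Kif3b*, without scaling, and the difference between the stages was not tested. *Kif17*, a further kinesin-2 motor, was not above background at E8.5, and read −4.46 in WT and −4.04 in the array labelled *Dyrk2*-/- at E10.5.

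Among the dynein-2 genes, *Dync2h1*, the heavy chain, read 1.40 and 1.36 at E8.5, then 1.41 and 1.37 at E10.5, so all 4 arrays were close. *Wdr34*, an intermediate chain of dynein-2 and the brightest motor gene, read 6.19 and 6.44 at E8.5, then 6.04 and 6.11 at E10.5, with the E8.5 array labelled *Dyrk2*-/- above WT except with spike-ins or without scaling. *Arl3*, a GTPase that releases lipid-anchored cargo inside the cilium, read 5.43 in WT and 5.40 in the array labelled *Dyrk2*-/- at E8.5, then 5.35 and 5.31 at E10.5. These arrays were also close, and the 3 genes of this class had median ratios of −0.03 and 0.03, of which the latter was −0.10 without scaling.

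All 6 ciliary hedgehog regulators were above 0 at E8.5, with a median ratio of 0.13 that was −0.42 with spike-ins and −0.13 without scaling, and at E10.5 the median was −0.09, or 0.07 with spike-ins. *Evc*, a membrane protein of the cilium base that binds Smoothened, read 0.22 in WT and 0.61 in the array labelled *Dyrk2*-/- at E8.5, then 0.61 and 0.43 at E10.5. As in *Kif3a*, the WT array at E8.5 was the low one, and the E8.5 ratio of 0.39 was −0.16 with spike-ins. *Kif7*, a kinesin that orders the cilium tip where Gli factors gather, read −0.84 and −0.61 at E8.5, then −1.09 and −0.96 at E10.5, with the array labelled *Dyrk2*-/- the higher at both stages, except with spike-ins at E8.5 and without scaling at both.

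**Figure D1:**
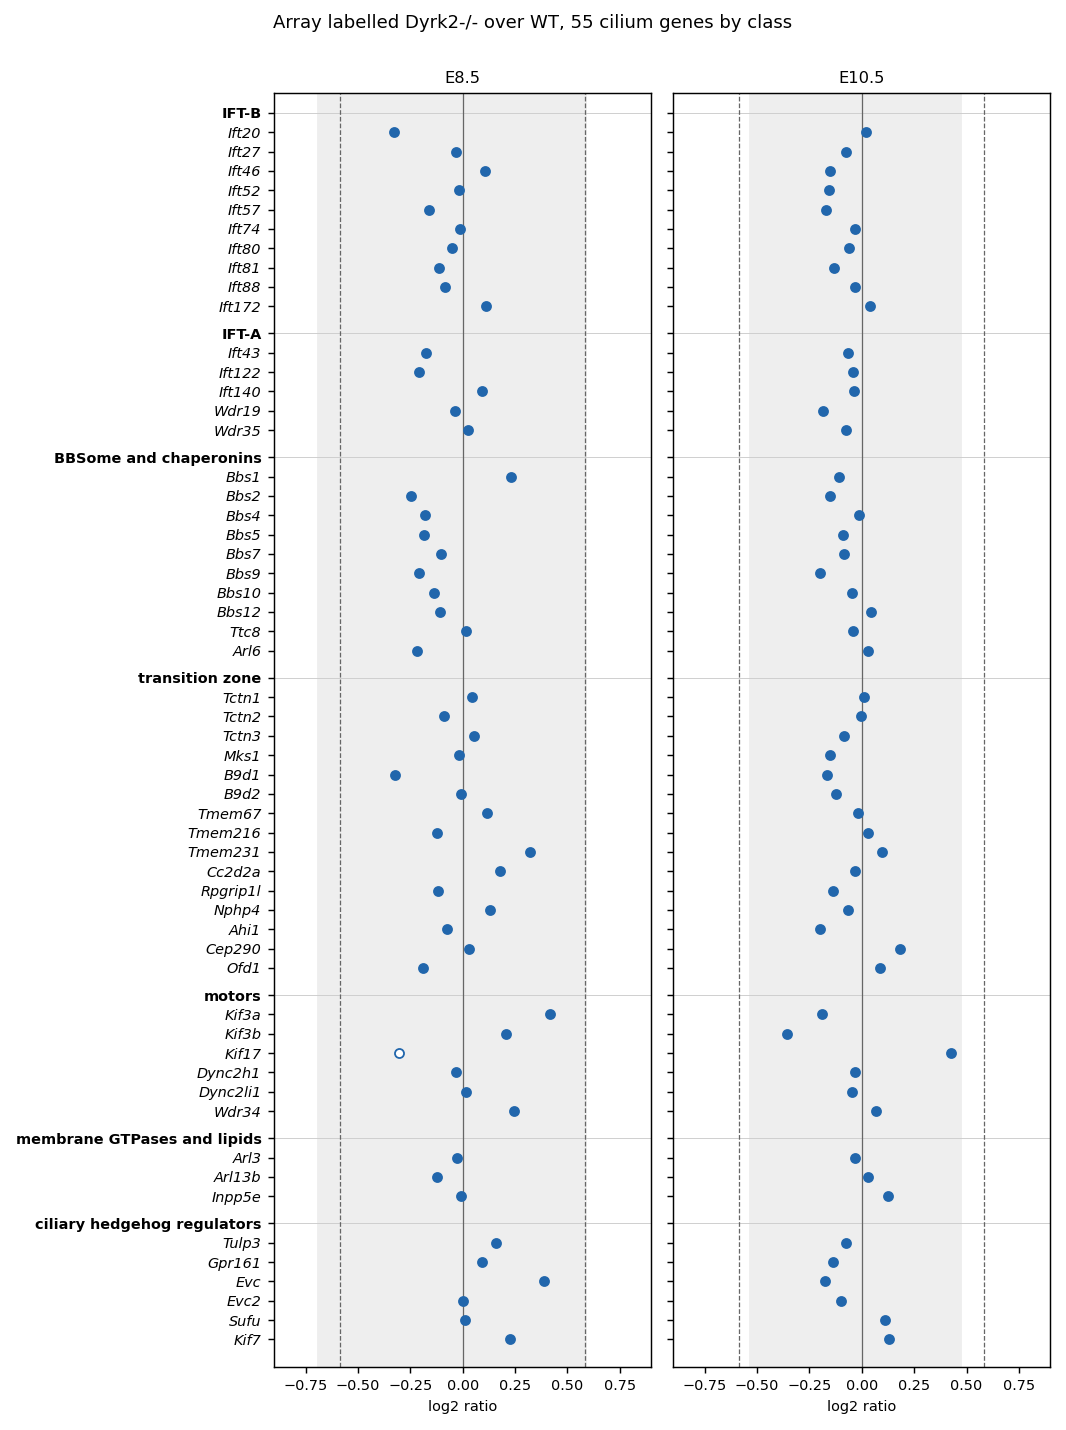
Log2 ratio of the array labelled Dyrk2−/− over WT (x axis) for each of the 55 cilium genes (y axis, by class) at E8.5 and E10.5, 1 array per group. Dashed lines mark 1.5-fold, the grey band runs from the 5th to the 95th percentile of all genes measured, and open points are genes not well above background in both arrays; 0 genes that were above background pass the dashed lines.

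Among the probes that do not represent a gene, a few did pass 1.5-fold between the genotypes. At E8.5 these were 5 of 43 measurable probes, or 11.6%, against 12.2% of such probes over all genes, and at E10.5 they were 2 of 44, or 4.55% against 8.48%. Of these, 4 and 1 were well above background in both genotypes. For *Rpgrip1l*, a scaffold of the transition zone, the second probe read −0.99 in WT and −2.19 in the array labelled *Dyrk2*-/- at E8.5, then −0.97 and −0.85 at E10.5, and the array labelled *Dyrk2*-/- at E8.5 stood below the other 3. The brightest probe of *Rpgrip1l* did not show this, with −1.20, −1.31, −0.81 and −0.95 in the same order.

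The other 4 at E8.5 were dimmer than the brightest probes of their genes. For *Tctn1*, a tectonic of the gate, such a probe read −4.00 and −3.10 at E8.5, then −3.55 and −3.58 at E10.5, against 0.58, 0.62, 0.91 and 0.92 for its brightest probe. For *Cc2d2a*, of the same complex, it read −1.56 and −0.95 at E8.5, then −1.45 and −1.70 at E10.5, and for *Ift27* −3.63 and −3.04, then −3.32 and −3.33. In all 3 the E8.5 array labelled *Dyrk2*-/- was the highest of the 4. The brightest probe of *Cc2d2a* read 0.95, 1.13, 0.89 and 0.86. A probe of *Tctn3*, a further tectonic, read −4.75 and −5.34 at E8.5, the latter not above background, so that no fold can be given, and −4.02 and −3.75 at E10.5, against −1.38, −1.33, −1.29 and −1.37 for its brightest probe.

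At E10.5 the 2 probes belonged to *Bbs1* and *Sufu*. The *Bbs1* probe read −5.87 in WT, below background, and −4.32 in the array labelled *Dyrk2*-/-, or at least 1.31-fold higher, after −4.60 and −4.79 at E8.5. The *Sufu* probe read −3.69 and −4.49 at E10.5, after −3.55 and −3.32 at E8.5. Both are dim, and their genes' brightest probes differed by −0.11 and 0.11 there.

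The comparison of stages asks how these genes change as the embryo grows from E8.5 to E10.5. It uses the same arrays as the comparison of genotypes, so the 2 are set side by side and not counted against each other. Over both genotypes 10 of the 55 cilium genes changed between the stages in limma, at an adjusted p under 0.05, which is 18.2% of them. Of all 32289 probes, 35.3% were called, 15.7% higher and 19.6% lower at E10.5, and of 20901 genes by brightest probe 37.7%. *Ahi1*, *B9d2*, *Gpr161* and *Bbs1* rose, and *Evc2*, *Tulp3*, *Sufu*, *Ift57*, *Ift43* and *Tctn2* fell. By class these are 4 of 6 hedgehog regulators, 3 of 15 transition zone genes, 1 of 10 IFT-B genes, 1 of 5 IFT-A genes, 1 of 10 BBSome genes, 0 of 6 motor genes and 0 of 3 genes of membrane GTPases and lipids. Markers of other tissues were also called: 12 of 13 heart genes (11 lower), 9 of 13 neural genes (9 higher) and 10 of 13 mesenchyme and somite genes (7 higher). So were 13 of 13 yolk sac endoderm genes (11 lower), 14 of 15 erythroid genes (14 higher) and 5 of 12 proliferation genes (4 lower). The part of these markers in the stage values of the cilium genes was not tested.

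Within a genotype, 6 of 55 cilium genes passed 1.5-fold from E8.5 to E10.5 in WT, 4 higher and 2 lower, where 36.4% of 21643 genes did, 18.8% higher and 17.5% lower. In the arrays labelled *Dyrk2*-/- 4 of 55 did, 2 higher and 2 lower, where 31.5% of 21266 genes did, 17.6% higher and 13.9% lower. *Ahi1* and *Kif17* (higher) and *Evc2* (lower) passed in both, *Bbs1* and *Kif3a* (higher) and *Sufu* (lower) in WT, and *Tulp3* (lower) in the arrays labelled *Dyrk2*-/-. *Kif17* was below background at E8.5, so its folds are bounds of at least 1.28 in WT and 1.40 in the arrays labelled *Dyrk2*-/-. With a normexp correction its ratios were 0.05 and 0.06. With a filter on all 4 arrays, which leaves out *Kif17*, the counts were 5 and 3. A difference between the genotypes in the stage ratios was not tested. Of *Xist* and the Y-linked genes, 5 of 5 passed 1.5-fold between the stages in the arrays labelled *Dyrk2*-/-, and 1 of 4 measurable in WT. The part of this in the stage ratios of the cilium genes was not tested. The medians of the cilium genes were 0.01 and −0.02, those of all genes −0.08 and −0.05. The WT and *Dyrk2*-/- stage ratios share no array, and 43 of the 55 genes had the same sign in both and 12 had opposite signs. Of 18686 genes well above background on all 4 arrays, 79.6% had the same sign. With spike-ins these were 23 of the 55 genes and 46.9% of all. Across the 55 genes, which are not independent replicates, Pearson's r of the ratios was 0.783, and it was 0.864 across the larger set.

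Spike-in scaling moved the median stage ratio of all genes to −0.15 in WT and 0.59 in the arrays labelled *Dyrk2*-/-, and no scaling to 0.10 and 0.25. With spike-ins 31 cilium genes passed 1.5-fold in the arrays labelled *Dyrk2*-/-, all higher, as did 50.1% of all genes, and limma called 0 of the 55 genes and 8.15% of all probes. The calls also changed with the arrays in the fit. A fit of stage alone called 12 cilium genes on all 4 arrays, and on 3 arrays it called 1 without the WT array at E10.5, 2 without the array labelled *Dyrk2*-/- at E10.5, 12 without the WT array at E8.5 and 15 without the array labelled *Dyrk2*-/- at E8.5. Of all probes these fits called 35.3%, 14.4%, 18.9%, 38.9% and 41.4% in the same order. *Evc2* was called in all 4 fits on 3 arrays and *Ahi1* in 3. These fits were chosen after seeing the data, and the spread of the lone array is taken to be that of the other stage.

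The transition zone held the largest rise among the 10 genes called. *Ahi1* (NM_026203, probe at chr10:20679782-20679841, mm9), a gate protein mutated in Joubert syndrome, read 1.15 in WT and 1.08 in the array labelled *Dyrk2*-/- at E8.5, then 1.92 and 1.73 at E10.5. Both E10.5 arrays were above both E8.5 arrays. The rise was 0.71 ± 0.13 in log2 (limma estimate ± SE, as below), with an adjusted p of 0.00259. The direction was the same in both genotypes and under each scaling, though with spike-ins the rise was not called. These SEs draw mostly on the variance of other probes, with the genotypes in place of replicates. They and the p-values do not measure the spread between embryos. Its other probes gave 0.79 and 0.48 in WT, and 0.46 and 0.24 in the arrays labelled *Dyrk2*-/-.

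*B9d2* (NM_172148, chr7:26471500-26471559), a B9-domain protein of the gate, read 2.12 and 2.11 at E8.5, then 2.67 and 2.54 at E10.5. The genotypes were level at E8.5 and both E10.5 arrays were higher. It rose by 0.49 ± 0.12, with an adjusted p of 0.0131, in both genotypes, and was called in 7 of 9 alternatives. *Tctn2* (NM_026486, chr5:125077404-125077463), a tectonic, read 2.91 and 2.82 at E8.5, then 2.51 and 2.50 at E10.5, and fell by 0.36 ± 0.12 with an adjusted p of 0.0448. Both genotypes were lower at E10.5, but with spike-ins the ratio was 0.32 in the arrays labelled *Dyrk2*-/-, and *Tctn2* was called in 3 of 9 alternatives. Its dimmer probes above background gave −0.33, 0.08 and 0.20 in WT, and −0.49, −0.53 and −0.13 in the arrays labelled *Dyrk2*-/-. Of the 12 transition zone genes not called, *Ofd1* had ratios of −0.50 in WT and −0.22 in the arrays labelled *Dyrk2*-/-, with an adjusted p of 0.0627. It lies on the X chromosome, and the arrays labelled *Dyrk2*-/- also differed in *Xist* and the Y-linked genes between the stages.

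The hedgehog regulators hold the largest falls. *Evc2* (NM_145920, chr5:37816219-37816278), the partner of *Evc* in binding Smoothened at the cilium base, read 3.67 in both arrays at E8.5, then 3.07 in WT and 2.97 in the array labelled *Dyrk2*-/- at E10.5. Both E10.5 arrays were lower, and the genotypes were level within each stage. It fell by 0.65 ± 0.12, with an adjusted p of 0.00272, in both genotypes, and a second probe gave −0.69 and −0.89. The sign of both ratios was the same under each scaling, but with spike-ins the ratio in the arrays labelled *Dyrk2*-/- was −0.07 and the call was lost.

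*Tulp3* (NM_011657, chr6:128271152-128271161), an adaptor that loads receptors such as Gpr161 onto IFT-A, read 0.97 and 1.13 at E8.5, then 0.47 and 0.39 at E10.5. It fell by 0.61 ± 0.14, with an adjusted p of 0.00773, in both genotypes, and its other probes gave −0.77 and −0.51, and −0.37 and −0.09. With spike-ins its ratio in the arrays labelled *Dyrk2*-/- was −0.094, and the call was lost there, without scaling and without the intensity trend. *Sufu* (NM_015752, chr19:46563107-46563166), which holds Gli factors inactive, read 1.26 and 1.27 at E8.5, then 0.67 and 0.78 at E10.5. It fell by 0.54 ± 0.13, with an adjusted p of 0.0112, in both genotypes, but was 0.15 higher in the arrays labelled *Dyrk2*-/- with spike-ins. The 3 dimmer probes of *Sufu* gave −0.13, 0.017 and 0.0014 in WT, and −1.17, −0.028 and −0.073 in the arrays labelled *Dyrk2*-/-. With the mean over probes the ratios were −0.18 and −0.44, and the call was lost. It was kept in 5 of 9 alternatives.

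*Gpr161* (XM_011238820, chr1:167256611-167256670), a receptor that keeps the hedgehog pathway off, went the other way. It read 1.47 and 1.57 at E8.5, then 2.06 and 1.92 at E10.5, and rose by 0.47 ± 0.13 with an adjusted p of 0.0209 in both genotypes. The sign was the same under each scaling, but the call was lost with spike-ins and without the intensity trend. *Evc* had stage ratios of 0.39 and −0.18 and *Kif7* of −0.26 and −0.35, and neither was called. The median of the 6 regulators was −0.38 in WT and −0.42 in the arrays labelled *Dyrk2*-/-, the latter 0.22 with spike-ins.

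In each of the IFT-B, IFT-A and BBSome classes 1 gene was called. *Ift57* (NM_028680, chr16:49764123-49764182), a peripheral IFT-B subunit, read 2.09 and 1.93 at E8.5, then 1.63 and 1.46 at E10.5, and fell by 0.46 ± 0.12 with an adjusted p of 0.0181, called in 6 of 9 alternatives. *Ift43* (NM_029601, chr12:87503228-87503287), of IFT-A, fell by 0.42 ± 0.12 with an adjusted p of 0.0234, from the values given above, and was called in 4 of 9 alternatives. Both genes were lower at E10.5 in both genotypes, but with spike-ins they were 0.17 and 0.28 higher there in the arrays labelled *Dyrk2*-/-. The other 9 IFT-B and 4 IFT-A genes were not called, and the IFT-B ratios ran from −0.46 to 0.36 in WT and from −0.47 to 0.29 in the arrays labelled *Dyrk2*-/-.

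*Bbs1* (NM_001033128, chr19:4887034-4887093), the BBSome subunit that binds Arl6, read 0.71 in WT and 0.94 in the array labelled *Dyrk2*-/- at E8.5, then 1.34 and 1.23 at E10.5. Both E10.5 arrays were above both E8.5 arrays, and it rose by 0.46 ± 0.14 with an adjusted p of 0.0314, called in 6 of 9 alternatives. A second probe of *Bbs1* gave 0.75 and 1.03, but a further probe, also above background on all 4 arrays, gave −0.19 and −0.07. Another, below background on 1 array of each genotype, was at least 1.08-fold lower at E10.5 in WT and at least 1.15-fold higher in the arrays labelled *Dyrk2*-/-. With the mean over its probes the WT ratio of *Bbs1* was −0.021.

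No motor gene was called. *Kif3a* had a stage ratio of 0.62 in WT and 0.02 in the arrays labelled *Dyrk2*-/-, with an adjusted p of 0.147, but was called in 3 of 9 alternatives, and *Kif17* was called without scaling. For *Kif3a* the WT array at E8.5 was the only one below the others, and a second probe of *Kif3a* gave 0.83 and 0.53. *Kif17* read −5.09 in WT and −5.39 in the array labelled *Dyrk2*-/- at E8.5, both below background. It was at least 1.28-fold higher at E10.5 in WT and at least 1.40-fold in the arrays labelled *Dyrk2*-/-, with an adjusted p of 0.111, so its place past 1.5-fold rests on values below background. *Wdr34* had ratios of −0.15 and −0.33, and *Dync2h1* of 0.01 and 0.01.

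**Figure D2:**
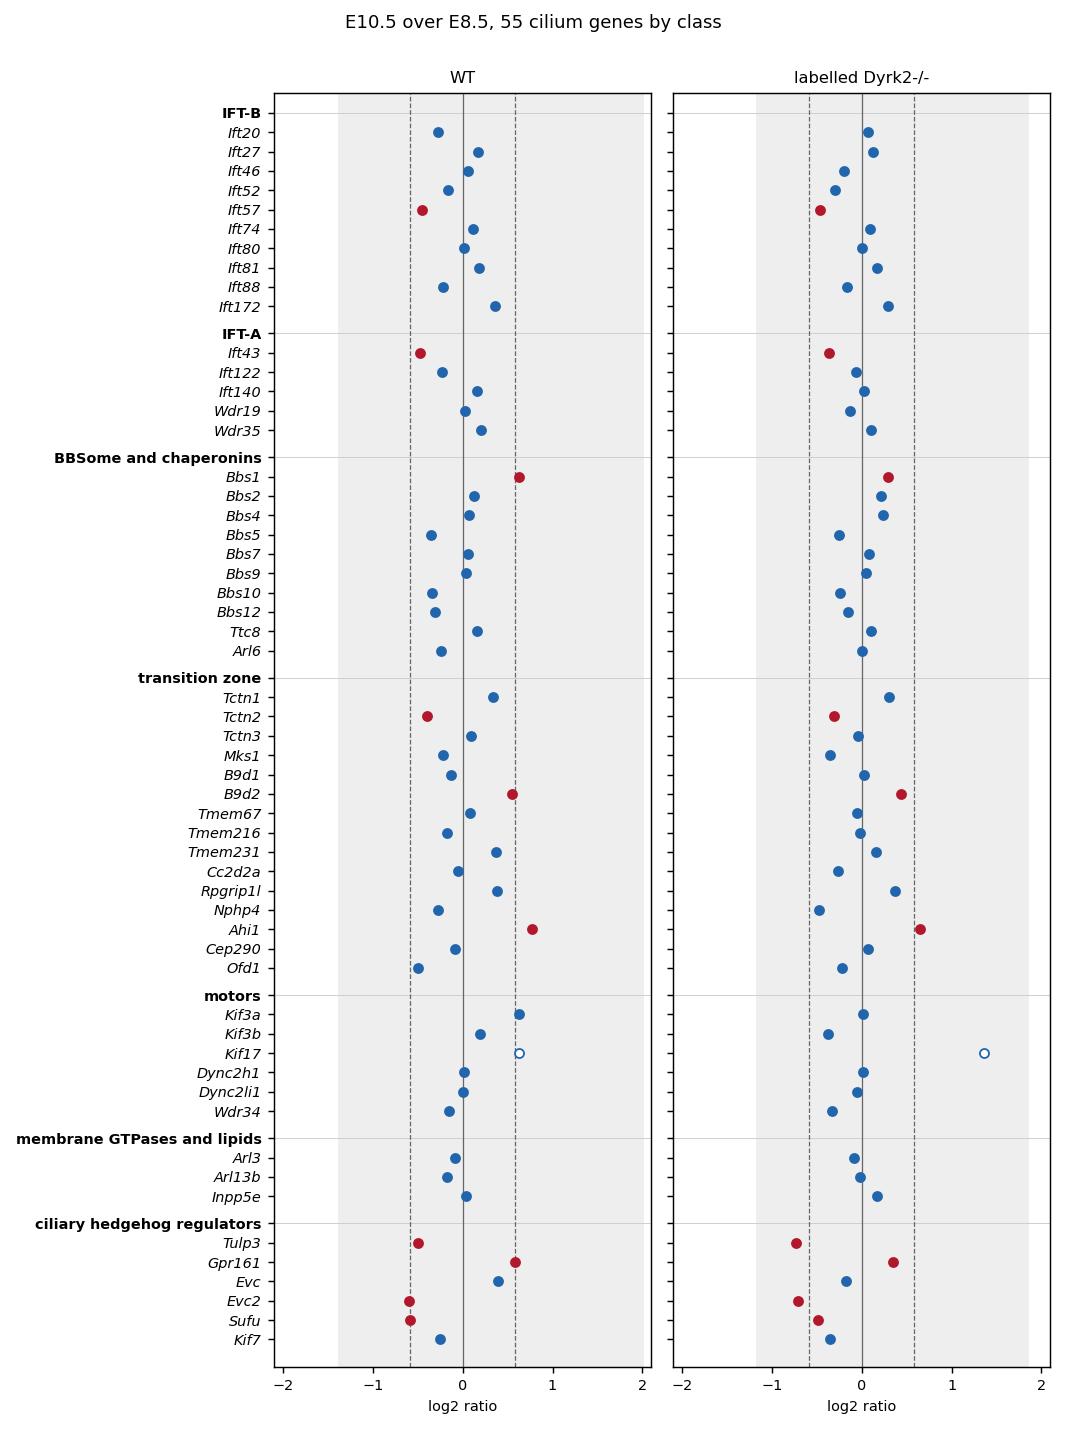
Log2 ratio of E10.5 over E8.5 (x axis) for each of the 55 cilium genes (y axis, by class) in WT and in the arrays labelled Dyrk2−/−, 1 array per group. Red marks the 10 genes called by limma over both genotypes, open points are genes not well above background in both arrays, dashed lines mark 1.5-fold and the grey band runs from the 5th to the 95th percentile of all genes measured; Ahi1 lies at 0.78 and 0.65 and Evc2 at −0.60 and −0.71.

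Some probes that do not represent a gene also differed between the stages. In WT 9 of 44 measurable ones passed 1.5-fold (20.5%, against 34.6% over all genes), and in the arrays labelled *Dyrk2*-/- 10 of 43 (23.3%, against 31.3%). Of these, 7 and 9 were well above background at both stages, and the others rest on values below background. For *Mks1*, a B9-domain protein of the gate, the second probe read −1.70 and −1.44 at E8.5, then −2.38 and −1.96 at E10.5, lower at E10.5 in both genotypes. Dim probes of the transport genes *Ift172* and *Ift140* passed in the arrays labelled *Dyrk2*-/- alone. They read −3.80 and −3.47, then −3.61 and −4.12 for *Ift172*, and −4.28 and −3.94, then −4.30 and −4.59 for *Ift140*. In both, the E10.5 array labelled *Dyrk2*-/- was the lowest of the 4. The same array was lowest for a probe of *Bbs5*, a BBSome subunit, at −2.56, −2.42, −2.85 and −3.04, and for one of *Tmem216*, at −4.24, −3.79, −4.17 and −4.47. The further probe of *Tctn3* that passed in WT read −5.05 and −4.52 at E8.5, then −3.84 and −4.00 at E10.5, and both E8.5 values are below background, with at least 1.97-fold between the stages in WT.

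RFX transcription factors bind the X-box, a pair of facing half-sites found before many cilium genes, so the promoters of the 55 genes were searched. RefSeq promoters (GRCm38.p6, from 250 bases before to 50 after the start) were held for 50 of the 55 genes, and not for *Ift80*, *Ift81*, *Ift122*, *Tmem67* and *Dync2li1*. A gene was counted when any of its promoters held the motif. An X-box, searched on both strands with 0 to 3 bases between the half-sites, lay in 8 of 50 genes, or 16.0%. It lay in 1.75% of 27025 genes with a promoter and in 1.93% of 12508 such genes well above background on at least 1 array. The half-site GTTGCC, on either strand and overlapping the X-box in part, lay in 23 of 50, or 46.0%, and in 14.1% and 14.6% of these larger sets. All 8 genes with an X-box also held this half-site.

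The transition zone class held 5 of the 8, in 14 genes with a promoter, and the hedgehog regulators held 0 in 6. Of the 10 genes called between the stages 5 held an X-box, and 3 of the 40 others with a promoter did (7.5%), a split made after the values were seen. The half-site lay in 5 of 10 (50%) and 18 of 40 (45.0%). These 5 are *Ahi1*, *B9d2* and *Bbs1*, which rose, and *Tctn2* and *Ift57*, which fell. The median GC content of the promoters, by gene, was 60% in the 50 genes and in genes above background. It was 52.75% in all genes with a promoter, 54.3% in the 10 genes called and 60.5% in the 40 others. A match is a description of the sequence and does not show that a factor binds.

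The stretches around the X-boxes of these 5 genes are printed because they are shared by genes that moved in opposite directions, with those of the other 3 genes for comparison. Capitals mark the X-box, each is read 5′ to 3′ on the strand of the gene, and the positions are those of GRCm38.p6: *Ahi1* chr10:20952560-20952589 (+), *B9d2* chr7:25680788-25680817 (+), *Bbs1* chr19:4906605-4906634 (−), *Tctn2* chr5:124598664-124598723 (+), *Ift57* chr16:49699184-49699243 and chr16:49699210-49699269 (+), *Tctn1* chr5:122264411-122264440 (−), *Tctn3* chr19:40612336-40612395 (−) and *Kif17* chr4:138262154-138262213 (+). The 2 stretches of *Ift57* overlap.
Ahi1: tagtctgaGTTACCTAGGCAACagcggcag
B9d2: aacctgctGTTGCCCCAGCAACagtcgggg
Bbs1: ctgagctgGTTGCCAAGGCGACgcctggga
Tctn2: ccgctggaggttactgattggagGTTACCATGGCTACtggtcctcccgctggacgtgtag
Ift57: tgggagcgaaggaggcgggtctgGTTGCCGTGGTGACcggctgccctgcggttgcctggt
Ift57: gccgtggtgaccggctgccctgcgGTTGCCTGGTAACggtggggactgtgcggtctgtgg
Tctn1: gcgctaggctgtgactGTTGCCCGGGCAAC
Tctn3: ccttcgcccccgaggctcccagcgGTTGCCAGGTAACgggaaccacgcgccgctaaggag
Kif17: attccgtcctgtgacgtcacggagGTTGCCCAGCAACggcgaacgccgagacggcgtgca

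In *Ift57* the X-boxes begin 87 and 60 bases before the start, in *Tctn2* 62, in *Kif17* 73 and in *Tctn3* 140. In *Ahi1*, *B9d2*, *Bbs1* and *Tctn1* they lie at or after the start.

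The RFX genes themselves, listed with *Foxj1*, the regulator of motile cilia, are 7 genes. At E8.5 *Rfx5* was higher and *Foxj1* lower past 1.5-fold in the array labelled *Dyrk2*-/-, and at E10.5 0 of 7 passed. *Rfx3*, a regulator of cilium genes in many tissues, read 1.71 in WT and 1.70 in the array labelled *Dyrk2*-/- at E8.5, then 1.88 and 1.71 at E10.5, and *Rfx1* read 0.71, 0.94, 0.80 and 0.83 in that order. Both were close over the 4 arrays. Between the stages limma called 4 of the 7, 3 higher and 1 lower. *Rfx4*, known from the neural tube, had stage ratios of 0.91 and 0.68.

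A list of 40 other cilium genes was read beside the 55. Between the genotypes 0 of 40 passed 1.5-fold at either stage, with medians of −0.04 and −0.07. With spike-ins the medians were −0.59 and 0.09, and 20 of 40 (50%) passed at E8.5, all lower, while without scaling 4 of 40 did. Between the stages limma called 8 of 40, or 20.0%, of which 6 rose and 2 fell. *Kif3c*, a further kinesin-2 subunit, read −1.04 in WT and −0.97 in the array labelled *Dyrk2*-/- at E8.5, then 0.49 and 0.26 at E10.5, and rose in both genotypes with an adjusted p of 0.000152. *Hspb11*, an IFT-B subunit, had stage ratios of −0.70 and −0.41. *Arl2bp* and *Dynlrb1*, the brightest of this list, differed by −0.05 and −0.09 between the genotypes at E8.5.

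The hedgehog ligands, receptors and Gli factors, which signal through the cilium, are 13 genes. *Hhip* was lower past 1.5-fold in the array labelled *Dyrk2*-/- at both stages. *Dhh*, a ligand, was not above background in WT at E8.5, and was at least 1.37-fold higher in the array labelled *Dyrk2*-/- there. *Hhip*, a membrane antagonist of hedgehog ligands, read −0.39 in WT and −1.28 in the array labelled *Dyrk2*-/- at E8.5, then 0.10 and −0.59 at E10.5. It was below WT at both stages, also with spike-ins and without scaling. *Smo*, the signal transducer inside the cilium, read 5.29 and 5.22 at E8.5, then 4.95 and 4.95 at E10.5, and *Gli3* read 3.80, 4.06, 3.89 and 3.98. Between the stages limma called 8 of these 13, 5 higher and 3 lower.

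Markers of other tissues differed between the same arrays. Of the 15 erythroid genes, led by *Hbb-bh1*, 14 were higher past 1.5-fold in the array labelled *Dyrk2*-/- at E8.5, with a median log2 ratio of 4.32, and 11 at E10.5, with a median of 1.1. In WT at E8.5, 3 of them were not above background. Of 13 yolk sac endoderm genes, led by *Afp*, 8 were lower at E8.5 but 0 at E10.5, and their summed signal was 74.0 and 47.8 at E8.5, then 30.4 and 24.9 at E10.5. The part of these lists in the values of the cilium genes was not tested.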

How the data were processed

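For each array the authors deposited scanner output (Feature Extraction 10.7.1.1 in the headers) with a linear, background-subtracted intensity, and a table of intensity values scaled to 1 shared distribution. The labels name version 9.5.1.1. The processed intensity was taken to log2 and averaged over a probe's spots without outlier spots, and the array's 75th percentile was subtracted. A gene was read from the probe with the highest mean. A probe entered a comparison when 1 or both arrays had it well above background, and the threshold was 1.5-fold, as in the study. With 1 array per group no test was made within a stage or genotype. Where 1 array was below background, the fold is a bound against the higher of its value and the array's lowest signal above background.

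Limma 3.58.1 (R 4.3.3) fitted stage and genotype, with an intensity trend, to the 32289 probes that 2 or more arrays had well above background. The fit had 1 residual degree of freedom and a median of 8.07 prior degrees of freedom, which come from the variance over all these probes. P-values were adjusted over all of the probes (Benjamini-Hochberg). Python 3.11.15 with pandas 2.3.3, numpy 2.4.6 and matplotlib 3.10.9 computed the summaries and figures. The code of the fold and limma calls was also run on simulated arrays with the same noise for every probe. Those arrays differ from these data, so that run does not show how often the calls are right here. Alternatives were quantile normalization, normexp correction with an offset of 50, spike-in scaling, no scaling, the deposited table, 2 other filters, a mean over probes, a 2-fold threshold and no intensity trend, and, added after seeing the data, any probe of a gene and stage alone, on all arrays and without each. No slide block was run, since all arrays lay on 1 slide.

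Members and lists were chosen with earlier results of these data known. Signals on every array are given for the brightest gene of each class, genes past 1.5-fold between genotypes, the 5 largest rises and 5 largest falls between stages, *Ofd1*, and genes of which some probes passed 1.5-fold and others did not. Of the other lists the 2 brightest genes and the largest differences are named. *Tctn2*, *Ift88*, *Dync2h1*, *Kif7* and the largest genotype ratios short of 1.5-fold (*Kif3a*, *Evc*, *Ift20*, *B9d1*, *Tmem231*, *Kif3b*) were chosen after their values were seen.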

Additional observations from a re-analysis of the deposited data

How the results depend on the processing

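Scaling, the choice of probe, the intensity trend and the arrays in the fit all moved the results. Between the genotypes at E8.5, the count of 0 genes past 1.5-fold became 22 with spike-in scaling, where 49.0% of all genes passed. It became 1 without scaling (*Ift20*), 1 with the mean over all probes (*Rpgrip1l*) and 5 with any probe of a gene. At E10.5 the count of 0 became 1 with spike-in scaling (*Kif17*) and 2 with any probe. Between the stages the count of 6 in WT became 3 with spike-in scaling and 0 at 2-fold. The count of 4 in the arrays labelled *Dyrk2*-/- became 31 with spike-in scaling, 8 without scaling, 1 at 2-fold and 13 with any probe. With spike-in scaling the share of all genes past 1.5-fold moved as well, as given above. The use of any probe was chosen after seeing the data.

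The median ratio between the genotypes became −0.57 with spike-in scaling and −0.27 without scaling at E8.5, while at E10.5 it became 0.12 and −0.18. Between the stages it became 0.19 without scaling in WT, and 0.62 with spike-in scaling and 0.29 without scaling in the arrays labelled *Dyrk2*-/-. The limma count of 10 genes between the stages became 0 with spike-in scaling and 2 without the intensity trend (*Ahi1*, *Evc2*), and, in fits of stage alone chosen after seeing the data, was 12 on all 4 arrays and ran from 1 to 15 without each array. Without scaling it was 12, of which 5 were among the 10, and 11 rose. Of all probes limma called 35.3% between the stages in the main fit, 8.15% with spike-in scaling, 19.9% without the intensity trend and 36.4% without scaling. Quantile normalization and the deposited table kept 8 of the 10, the mean over probes 7, and the 3 others all 10. *Ahi1* and *Evc2* were called in 8 of 9 alternatives, *Tctn2* in 3 and *Ift43* in 4, while 11 genes outside the 10 were called in 1 or more. The limma count of 0 between the genotypes was 0 in all 9.

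Values of single genes were counted only for stage ratios of genes past 1.5-fold, each in the genotype where it passed. Under the alternatives 45 of these values moved by less than the spread of repeated spots, 32 by more, and 1 changed sign. This was the WT stage ratio of *Bbs1*, at −0.021 with the mean over all probes. Some ratios outside this set, such as a genotype ratio of *Evc*, also changed sign with spike-ins, as given above. The causes were not tested. Signal over background limits *Kif17* and the dim second probes.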

Other observations

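The motile cilium genes, which build beating cilia and not the primary cilium, were not all above background. Of 18 on the array, 7 and 8 were not above background at E8.5 (WT, then the array labelled *Dyrk2*-/-) and 5 and 6 at E10.5. Between the genotypes 3 of 11 measurable genes were lower past 1.5-fold at E8.5 and 0 of 13 at E10.5, and limma called 4 between the stages, 3 higher and 1 lower. *Foxj1*, their regulator, read −3.49 and −4.30 at E8.5, then −1.76 and −1.84 at E10.5, higher at E10.5 in both genotypes. *Dnaic2*, a dynein arm chain, was at least 1.25-fold lower in the array labelled *Dyrk2*-/- at E8.5, and *Dnaic1* had a ratio of 0.49 at E10.5. *Mcidas* and *Ccdc40*, the brightest of the list, differed by −0.03 and 0.18 at E8.5. Of the motile cilium genes with a promoter, 3 of 15 held the X-box (20.0%) and 8 of 15 the half-site GTTGCC (53.3%). Among the other cilium genes these were 3 of 35 (8.57%) and 12 of 35 (34.3%).

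Markers of other cell types gave these counts between the genotypes. Of 12 proliferation genes 0 passed 1.5-fold at either stage, with *Pcna* and *Plk1* the brightest, and with ratios at E8.5 from −0.18 (*Cdk1*) to 0.21 (*Mcm5*). Of 13 heart genes, led by *Myh6* and *Myl4*, 1 was higher at E8.5 (*Myl2*, 0.81) and 0 at E10.5, and *Nkx2-5* had the lowest ratio at E8.5, −0.41. Of the neural genes, led by *Sox3* and *Stmn2*, 2 of 10 measurable were higher at E8.5, with *Pou3f2* at 1.04, and 2 of 13 lower at E10.5, with *Stmn2* at −0.61. Of 13 mesenchyme and somite genes, led by *Col1a1* and *Col3a1*, 4 were higher at E8.5, with *Meox2* at 1.03, and at E10.5 1 was higher (*Col1a1*, 0.69) and 1 lower (*Pax1*, −0.65). Of 12 decidua and trophoblast genes on the array, led by *Gcm1* and *Hand1*, 3 of 10 measurable were higher and 2 lower at E8.5, and 1 of 6 higher at E10.5. *Prl4a1*, a gene of the prolactin family, was at least 2.99-fold higher in the array labelled *Dyrk2*-/- at E8.5, and *Pgr* had a ratio of −0.89. The summed signal of this list was 23.0 and 18.3 at E8.5, then 18.9 and 22.3 at E10.5. Ratios of the other lists' extremes were 6.00 for *Hbb-y* and −1.06 for *Foxa2* at E8.5, 0.20 for *Cubn* at E10.5, and, among the cilium and RFX lists at E8.5, 0.38 for *Nek8*, at least 1.38-fold lower for *Ttc30a2*, and 0.61 for *Rfx5*. *Dhh*, a hedgehog ligand, was at least 1.37-fold higher at E8.5, and *Ihh*, another, had stage ratios of −3.01 and −2.58.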
